A study of Mus musculus with 18 samples.

Results

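The genes described here encode 8 co-inhibitory receptors of T cells, *Ctla4*, *Pdcd1*, *Lag3*, *Havcr2*, *Tigit*, *Btla*, *Cd160* and *Cd244*. They were chosen by name from the 37991 genes listed for each library, and all 8 were among the 17240 genes that passed the filter on low counts. RNA was sequenced from splenic CD4+ T cells of Tg4-H2u mice, whose transgenic T cell receptor (TCR) recognizes a peptide of myelin basic protein, so that most CD4+ cells carry the same receptor. Tolerized mice (T) had received the 4Y peptide under the skin in repeated, rising doses, and control mice, whose CD4+ cells are mostly naive (N), had received PBS on the same schedule. Cells were taken at rest after a last dose of PBS (N0 and T0), shortly after a last injection of 4Y peptide antigen in vivo (NAg and TAg), or after a short stimulation ex vivo with PMA and the calcium ionophore A23187 (NPI and TPI). There were 3 libraries in each of the 6 groups. Every group, the controls included, carried the TCR transgene, the mice were young adults of both sexes, and the cells were enriched by removing other cells on beads rather than by sorting. PI bypasses the receptor and was applied outside the animal, whereas Ag was given in the animal, so that the stimulus and the setting cannot be told apart.

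Co-inhibitory receptors are cell surface proteins that reduce T cell activation once they bind their ligands. CTLA-4 competes with the costimulatory receptor CD28 for CD80 and CD86. PD-1, encoded by *Pdcd1*, and BTLA carry tyrosine motifs in their tails that recruit the phosphatases SHP-1 and SHP-2. BTLA and CD160 both bind HVEM, the product of *Tnfrsf14*, TIGIT competes with CD226 for PVR, LAG-3 binds MHC class II, and CD244 (2B4) binds CD48. Most of these receptors are low on resting naive T cells and rise with activation, and several are kept at high levels on exhausted, anergic and regulatory T cells.

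The libraries held between 10758571 and 24119489 reads assigned to genes, with the TPI and NPI libraries the deepest. All values below are read counts normalized for library size and composition with edgeR's TMM method. The T cell genes *Cd4* and *Cd3e* were high in all 18 libraries (at least 2142 and 1732 normalized counts), and of the CD8 T cell markers *Cd8a* had at most 47.1, whereas *Cd8b1* had a mean of 205 in N0, 79.2 in T0, 107 in NAg, 43.8 in TAg, 151 in NPI and 55.3 in TPI. *Cd4* had a mean of 6943 in N0, 5154 in T0, 2185 in NAg, 3243 in TAg, 5114 in NPI and 4281 in TPI. Of 8 CD4 T cell markers, 1 was higher and 7 lower in NAg than N0 (32.1% and 33.4% of all tested genes). In T0 against N0, 0 were higher and 4 lower. Markers of other cells were present and differed between groups. The 7 neutrophil markers summed to between 55.5 and 158 in N0 and between 1604 and 2868 in T0, and the 8 macrophage and monocyte markers to between 456 and 642 and between 1302 and 1662. All 7 neutrophil markers were called higher in T0 than N0, but 1 of the 8 macrophage and monocyte markers was, and their median log2 fold change was -0.08. The 6 B cell markers reached 1719.6 in replicate 1 of N0, against 315 and 414 in the other two N0 libraries, and 2469 in replicate 1 of T0. The 6 natural killer (NK) cell markers, which matter because NK cells also carry CD160, TIGIT and CD244, summed to between 536 and 1063 in N0 and between 849.8 and 1184 in T0. The 6 regulatory T cell markers summed to between 1783 and 3498 in N0 and between 7254 and 9248 in T0, and their defining gene *Foxp3* to 368, 148 and 275 in N0 and 776, 1043 and 339.5 in T0. After Ag the neutrophil markers summed to between 122 and 308 in NAg and between 1989 and 3489 in TAg. After PI they summed to between 62.8 and 170.4 in NPI and between 395 and 669 in TPI. Of the 8 macrophage and monocyte markers, 6 were lower in TAg than NAg and 1 higher (median log2 fold change -1.02). Their sums were 1501, 509 and 521 in NAg and 943, 1042 and 1403 in TAg. Regulatory T cell markers were higher for 4 of 6 in T0 than N0, 2 of 6 in TAg than NAg and 5 of 6 in TPI than NPI. In TPI *Foxp3* had between 779 and 1118, against between 359.6 and 395 in NPI. Beside these marker counts, 8.42% of all tested genes were higher and 12.0% lower in T0 than N0. The shares were 20.9% and 18.5% in TAg against NAg, and 18.2% and 19.7% in TPI against NPI. With a median log2 fold change of 0.30, the 2 of 6 after Ag are not read as a rise of the list. The 6 T follicular helper cell markers summed to between 6423 and 8419.6 in TAg against between 4713 and 4841 in NAg. After PI they summed to between 28279 and 35237 in TPI against between 3777 and 5097 in NPI. Much of these sums was *Il21*, with means of 3682 in TAg, 459 in NAg, 22184 in TPI and 1355 in NPI. By gene, 1 of the 6 was higher and 2 lower in TAg than NAg (median log2 fold change -0.44). In TPI against NPI, 5 were higher and 1 lower (median 1.62). The part of the regulatory and follicular helper cell content in the receptor levels was not tested. In bulk RNA, more cells of a type and more RNA per cell cannot be told apart. Reads of Y-linked genes numbered 5111 or more in all 6 NPI and TPI libraries, in 2 T0 libraries and in 1 TAg library, and at most 18 in each of the others, which include all N0 and NAg libraries.

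Promoter sequences are shown for 4 members whose levels followed different patterns. *Ctla4* and *Tigit* were called higher in T than N in each state, and *Pdcd1* and *Btla* were not called higher after Ag in the main model. RefSeq promoters of build GRCm38.p6 were on hand for 7 of the 8 members, all but *Lag3*. The 250 bases before the RefSeq start of transcription, which for *Ctla4* lies inside the gene span annotated in NCBIM37 (window at 60965619 to 60965868), are given 5′ to 3′ on the strand of the gene, with capitals marking matches on either strand to the core letters of an NFAT site (GGAAA), a RUNX site (TGTGGT) or an AP-1 site (TGANTCA).
*Ctla4*, chr1:60908775-60909024, plus strand: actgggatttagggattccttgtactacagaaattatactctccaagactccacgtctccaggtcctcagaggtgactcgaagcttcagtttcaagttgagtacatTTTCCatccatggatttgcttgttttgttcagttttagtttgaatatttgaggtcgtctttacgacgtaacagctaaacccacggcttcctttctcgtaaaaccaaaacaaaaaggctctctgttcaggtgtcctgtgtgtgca
*Tigit*, chr16:43664185-43664434, minus strand: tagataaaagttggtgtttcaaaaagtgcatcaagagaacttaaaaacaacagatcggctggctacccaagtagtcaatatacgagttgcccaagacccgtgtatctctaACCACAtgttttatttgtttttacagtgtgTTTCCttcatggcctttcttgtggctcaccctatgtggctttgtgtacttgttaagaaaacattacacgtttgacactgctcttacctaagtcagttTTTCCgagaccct
*Pdcd1*, chr1:94052554-94052803, minus strand: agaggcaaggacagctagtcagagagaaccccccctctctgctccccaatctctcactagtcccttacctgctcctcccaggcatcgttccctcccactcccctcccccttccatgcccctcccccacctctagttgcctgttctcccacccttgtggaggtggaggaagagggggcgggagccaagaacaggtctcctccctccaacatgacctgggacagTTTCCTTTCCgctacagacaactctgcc
*Btla*, chr16:45224087-45224336, plus strand: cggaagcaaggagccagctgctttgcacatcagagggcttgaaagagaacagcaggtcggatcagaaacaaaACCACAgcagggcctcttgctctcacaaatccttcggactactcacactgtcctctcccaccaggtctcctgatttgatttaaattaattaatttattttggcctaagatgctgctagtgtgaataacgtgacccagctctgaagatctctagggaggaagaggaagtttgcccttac
The NFAT letters occurred once before *Ctla4*, 2 times before *Tigit* and 2 times before *Pdcd1*, where both matches lie 23 and 28 bases from the start. The RUNX letters occurred once each before *Tigit* and *Btla*. The AP-1 letters occurred in none of the 4 windows, and no match overlapped another motif. Among 32841 promoter windows of the same length, 55.6% held the NFAT letters, 14.0% the RUNX letters and 6.75% the AP-1 letters, so that these short matches are descriptions of sequence only.

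Compared per kb of exon, *Btla* had the highest level of the 8 genes in resting naive cells, with 692 ± 62.4 normalized counts per kb (SD, n = 3) in N0, ahead of *Ctla4* with 207 ± 50.3. *Havcr2* was the lowest in N0 with 8.30 ± 8.01. In T0 the order at the top changed, and *Ctla4* (938 ± 212 per kb) stood above *Btla* (645 ± 90.6). *Ctla4* also led in TAg, NPI and TPI, with 16445 ± 2320.4 per kb in TPI, while *Btla* led in NAg with 2200.3 ± 66.5 per kb against 1934 ± 287 for *Ctla4*. The summed level of the 8 genes per kb was 1099.6 ± 91.0 in N0, 2259 ± 118 in T0, 5247 ± 301 in NAg, 8973 ± 218 in TAg, 4850.1 ± 458 in NPI and 23882 ± 2924 in TPI. Of this sum, *Btla* made up 63.4% ± 10.01 in N0, 28.8% ± 5.39 in T0, 42.1% ± 3.73 in NAg, 17.6% ± 1.29 in TAg, 27.8% ± 1.28 in NPI and 14.0% ± 1.34 in TPI. *Ctla4* made up 18.7% ± 3.17 in N0 and 68.8% ± 1.24 in TPI. *Lag3* and *Tigit* together stood out in TAg, with 14.2% ± 1.70 and 13.4% ± 0.58, against 1.25% ± 0.22 and 3.13% ± 1.64 in NAg.

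**Figure D1:**
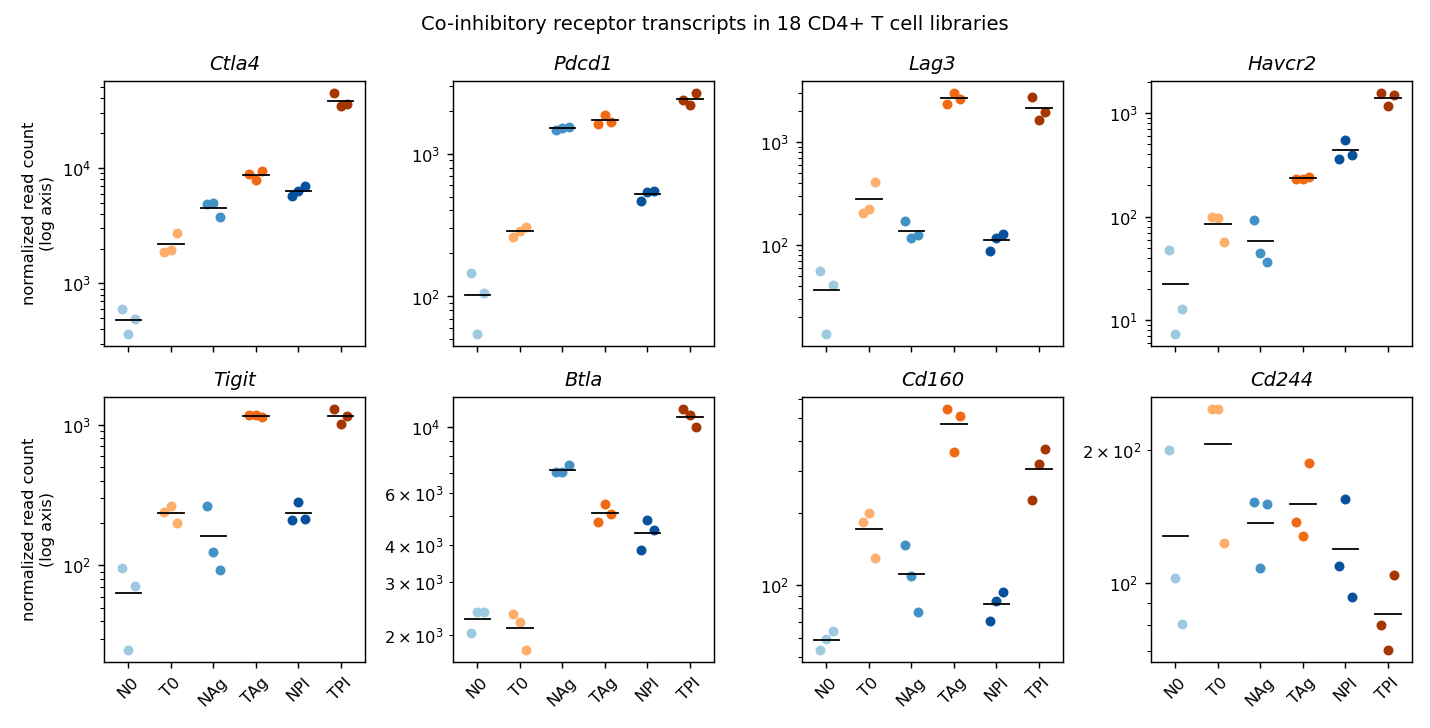
Normalized read count (log axis) of each of the 8 receptor genes in the 6 groups; points are the 3 libraries of a group and lines their mean. *Ctla4* is highest in TPI (34420.5 to 44489) and lowest in N0 (362 to 596), whereas *Cd244* stays between 70.2 and 249 in all 18 libraries.

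**Figure D2:**
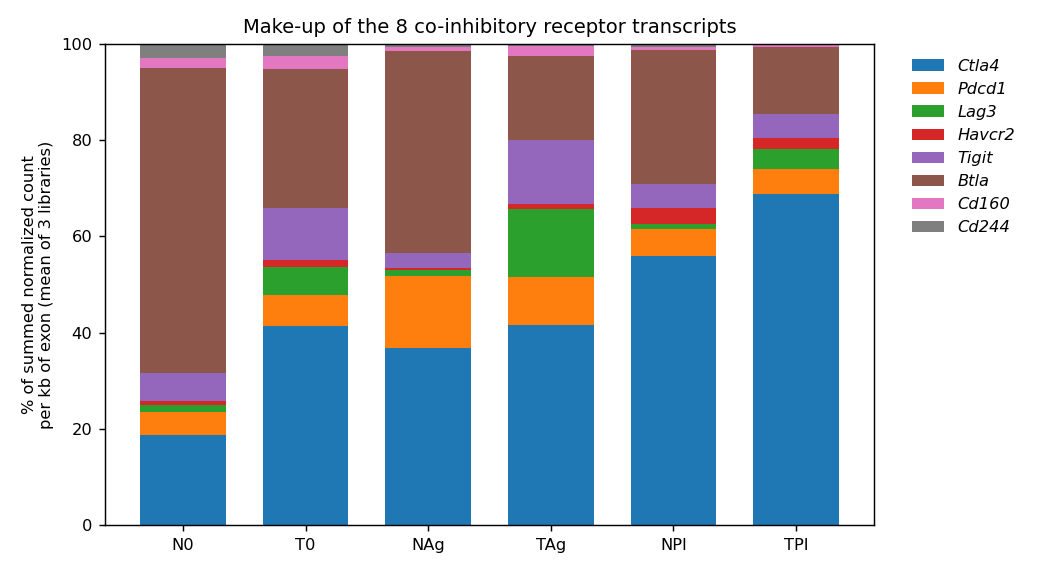
Share (%) of each gene in the summed normalized count per kb of exon of the 8 genes, as stacked means of the 3 libraries of each group. *Btla* fills 63.4% of the bar in N0 and 14.0% in TPI, and *Ctla4* 18.7% and 68.8%.

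Each comparison was tested in 1 edgeR model over all 17240 genes, and a gene was called higher or lower at a Benjamini-Hochberg adjusted p below 0.05. At rest, 6 of the 8 receptor genes were higher in T0 than N0 and 0 lower, where 8.42% of all tested genes were higher and 12.0% lower. The same 6 genes had libraries that did not overlap between the groups, as had 35.0% of all tested genes in either direction. The median log2 fold change of the 8 genes was 1.70, against -0.08 over all tested genes. After Ag, 5 of 8 were higher in TAg than NAg and 1 lower (all genes, 20.9% and 18.5%), and after PI 7 of 8 were higher in TPI than NPI and 0 lower (all genes, 18.2% and 19.7%). *Lag3*, *Tigit*, *Havcr2*, *Cd160* and *Ctla4* were called higher in tolerized cells in all 3 states, *Pdcd1* at rest and after PI, and *Btla* after PI. *Cd244* was called in none of the 3. When scores of erythroid and myeloid markers (the mean log2 CPM of each list), which were higher in T0 than N0, entered the model, 0 of the 8 were called in T0 against N0 and 19 and 20 genes of the whole table remained higher and lower. The log2 fold changes of the 6 genes then lay between 0.62 for *Tigit* and 2.28 for *Lag3*. The myeloid score lay between 0.56 and 0.91 in N0 and between 2.47 and 2.89 in T0. It did not overlap between naive and tolerized libraries after Ag or PI either. A model with this score can thus hardly separate it from the cell state, and the lost calls are not read as a result about the receptors. With the same scores, 3 of 8 were called higher in TAg than NAg (*Lag3*, *Tigit* and *Cd160*) and 5 of 8 in TPI than NPI.

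**Figure D3:**
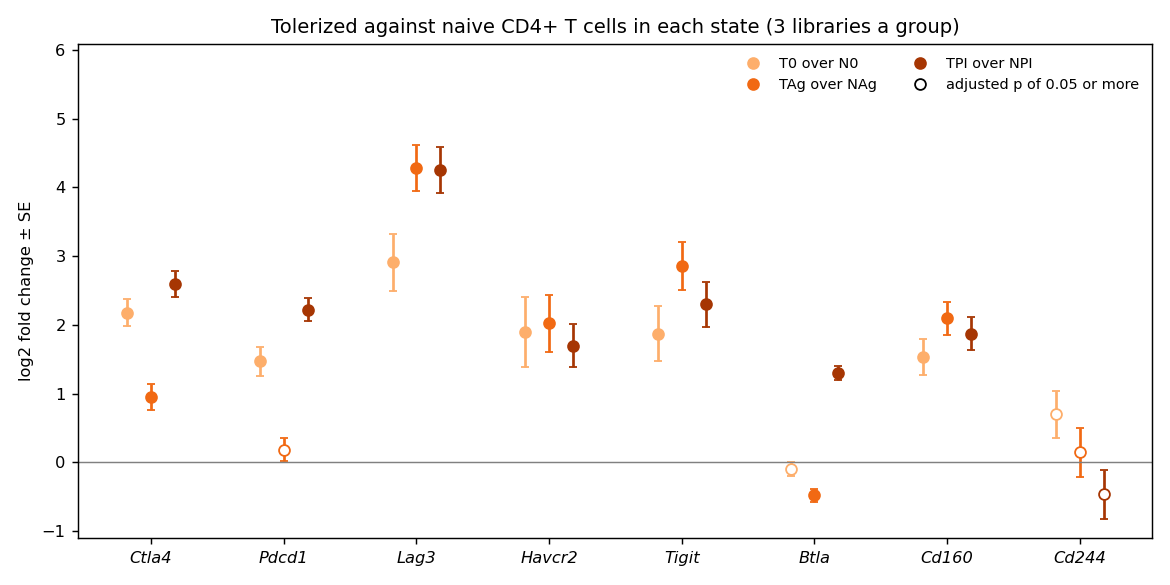
Log2 fold change with its standard error (vertical axis) of tolerized over naive cells at rest, after Ag and after PI for each gene, from 3 libraries a group; open points have an adjusted p of 0.05 or more. *Lag3* has the highest points (2.91, 4.28 and 4.26), and *Btla* lies at -0.10 and -0.48 at rest and after Ag and at 1.30 after PI.

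In naive cells, Ag raised 6 of the 8 genes and lowered 0 (NAg against N0; 32.1% of all tested genes were higher and 33.4% lower), and in tolerized cells it raised 7 of 8 and lowered 0 (TAg against T0; 29.9% and 29.8%). PI raised 6 of 8 in naive cells and lowered 0 (NPI against N0; 28.6% and 32.7%), and raised 7 and lowered 1, *Cd244*, in tolerized cells (TPI against T0; 32.0% and 36.3%). *Ctla4*, *Pdcd1*, *Lag3*, *Tigit* and *Btla* were called higher in all 4 of these comparisons. The call of *Tigit* in NAg against N0 was lost with only the groups compared (log2 fold change 1.27, adjusted p = 0.136) and with marker scores in the model (0.77, adjusted p = 0.21). Marker scores also ended the calls of *Cd160* in NAg against N0 (0.67, adjusted p = 0.117) and in TPI against T0 (1.29, adjusted p = 0.058). In these 4 comparisons 65.5%, 59.8%, 61.4% and 68.3% of all tested genes were called in one direction or the other, so a call alone is a common event, and the sizes are given below gene by gene.

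**Figure D4:**
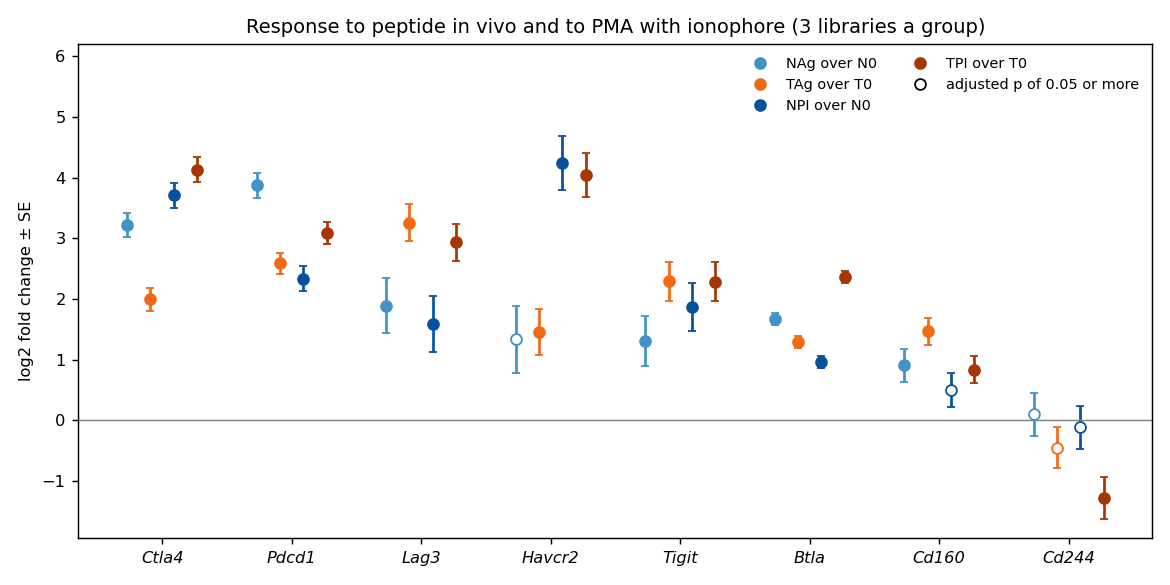
Log2 fold change with its standard error (vertical axis) of stimulated over resting cells, for Ag and PI in naive and tolerized cells, from 3 libraries a group; open points have an adjusted p of 0.05 or more. *Ctla4* has its smallest response to Ag in tolerized cells (1.99) and *Btla* its largest to PI in tolerized cells (2.36), while all 4 values of *Cd244* lie between -1.28 and 0.10.

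*Ctla4*, the CD28 relative that takes up CD80 and CD86 (chromosome 1, 60943844 to 60972676 in build NCBIM37, plus strand), had normalized counts of 596, 362 and 489 in the N0 libraries and 1854, 1948 and 2754 in T0. Every T0 library lay well above every N0 library, a log2 fold change of 2.18 (standard error, SE, 0.20; adjusted p = 6.2e-06). After Ag the counts were 4838, 4942 and 3737 in NAg and 8897, 7787 and 9398 in TAg. The lowest TAg library stood above the highest NAg library, but the gap between the cell states was narrower than at rest (log2 fold change 0.95, SE 0.18, adjusted p = 0.000918). Tested directly, the response of tolerized cells to Ag was weaker than that of naive cells by a log2 difference of -1.23 (SE 0.27, adjusted p = 0.00427), that is 3.98-fold against 9.33-fold. With erythroid and myeloid scores in the model this difference was -1.13, with an adjusted p of 0.054. After PI the counts were 5715, 6285 and 6969.8 in NPI and 44489, 34420.5 and 36040.0 in TPI, the highest values of any receptor in this set. PI raised *Ctla4* by 13.1-fold in naive and 17.5-fold in tolerized cells, and the responses did not differ by the test (log2 difference 0.42, SE 0.27, adjusted p = 0.313). The 6 groups stood in the order TPI, TAg, NPI, NAg, T0 and N0 with no overlap between neighbours.

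*Pdcd1*, which encodes PD-1, the receptor of PD-L1 and PD-L2 (chromosome 1, 95934884 to 95949130, minus strand), had 147, 54.3 and 106 normalized counts in N0 and 261, 287 and 308 in T0. The groups were apart, with a log2 fold change of 1.47 (SE 0.21, adjusted p = 0.000195). After Ag the counts were 1477, 1511 and 1533 in NAg and 1626, 1859 and 1659.7 in TAg. These libraries did not overlap either, yet the difference was small and did not pass the test (log2 fold change 0.19, SE 0.16, adjusted p = 0.402). It was called higher in TAg under 1 of 8 alternatives, the fit of only the groups compared. Over the 8 alternatives the log2 fold change ran from 0.14 to 0.22. Ag raised *Pdcd1* 14.6-fold in naive cells and 6.01-fold in tolerized cells, and this difference in response passed the test (log2 difference -1.28, SE 0.27, adjusted p = 0.00274). After PI the counts were 469, 539.9 and 546 in NPI and 2395, 2208 and 2656 in TPI. Naive cells thus had less *Pdcd1* after PI than after Ag (log2 fold change of NPI against NAg -1.54, SE 0.17, adjusted p = 9.37e-07), whereas tolerized cells had more (TPI against TAg 0.50, SE 0.16, adjusted p = 0.0137). The second value was 0.43 with an adjusted p of 0.0558 without replicate 3 of TPI. The response to PI, 5.04-fold in naive and 8.49-fold in tolerized cells, did not differ by the test (log2 difference 0.75, SE 0.27, adjusted p = 0.0657). It did so without replicate 2 of N0 (1.07, adjusted p = 6.47e-05) and with DESeq2 on all libraries (0.76, adjusted p = 0.00485).

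*Btla* (chromosome 16, 45224428 to 45253008, plus strand), the HVEM receptor that was already high in naive cells, had 2021, 2374 and 2372 normalized counts in N0 and 2342, 2197 and 1773 in T0. The groups overlapped, with a log2 fold change of -0.10 (SE 0.10, adjusted p = 0.526). After Ag the counts were 7065, 7031 and 7423 in NAg and 4799.9, 5515 and 5082 in TAg. Every TAg library lay below every NAg library, and *Btla* was the only receptor of the 8 called lower in tolerized cells (log2 fold change -0.48, SE 0.10, adjusted p = 0.00037). The difference stayed between -0.54 and -0.44 in the 6 fits that each left out 1 library. After PI the order was turned, with 3841, 4849 and 4493 in NPI and 11511, 10960.2 and 9973 in TPI. The log2 fold change of TPI against NPI was 1.30 (SE 0.10, adjusted p = 6.5e-10). PI raised *Btla* 1.95-fold in naive cells and 5.14-fold in tolerized cells, a difference in response of 1.40 on the log2 scale (SE 0.14, adjusted p = 2.19e-07). For the response to Ag, 3.18-fold in naive and 2.44-fold in tolerized cells, the difference of -0.38 missed the threshold (SE 0.14, adjusted p = 0.0505), and 5 of 8 alternatives called it.

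*Cd160*, which shares the ligand HVEM with BTLA (chromosome 3, 96602686 to 96633274, minus strand), had 53.5, 59.5 and 64.5 normalized counts in N0 and 183, 200.5 and 129 in T0. All T0 libraries lay above the N0 libraries, with a log2 fold change of 1.53 (SE 0.26, adjusted p = 0.000563). After Ag it had 147, 109 and 77.0 in NAg and 546, 361 and 511 in TAg, again apart (log2 fold change 2.09, SE 0.24, adjusted p = 3.35e-06). After PI it had 70.7, 85.8 and 93.4 in NPI and 226, 319 and 372 in TPI (log2 fold change 1.87, SE 0.24, adjusted p = 1.09e-05). Unlike *Btla*, *Cd160* was lower in TPI than TAg, though the libraries overlapped (log2 fold change -0.63, SE 0.21, adjusted p = 0.0171), and leaving out replicate 1 or 3 of TAg or replicate 1 of TPI ended the call, with values of -0.50, -0.57 and -0.44. Its rise after Ag in naive cells, 1.87-fold with an adjusted p of 0.00767, fell to 1.72-fold without replicate 1 of N0 (adjusted p = 0.0513) and to 1.57-fold without replicate 1 of NAg (adjusted p = 0.0583). The annotated exons of *Cd160* share 68 bp with *Pdzk1* on the opposite strand, which had at most 6 reads in any library.

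*Lag3*, a CD4 relative that binds MHC class II (chromosome 6, 124854379 to 124861723, minus strand), had 56.5, 13.6 and 40.7 normalized counts in N0 and 208, 225 and 411 in T0. The log2 fold change was 2.91 (SE 0.42, adjusted p = 0.000368), and replicate 2 of N0, the lowest, rested on 13 reads. After Ag it had 173, 117 and 125 in NAg and 2379, 3015 and 2662 in TAg. The NAg libraries lay below even the resting tolerized ones, and TAg was 19.4-fold above NAg (log2 fold change 4.28, SE 0.34, adjusted p = 5.79e-07), the largest difference of the set after Ag. After PI it had 87.4, 117 and 129.9 in NPI and 2764, 1658 and 1996 in TPI, 19.1-fold apart (log2 fold change 4.26, SE 0.34, adjusted p = 5.1e-07). PI and Ag left *Lag3* at overlapping levels within each cell state, with NPI against NAg at -0.30 (adjusted p = 0.506) and TPI against TAg at -0.33 (adjusted p = 0.316). Ag raised *Lag3* 3.71-fold in naive and 9.57-fold in tolerized cells, but the difference in response did not pass the test (log2 difference 1.37, SE 0.58, adjusted p = 0.12). It passed without replicate 2 of N0 (1.77, adjusted p = 0.0401) and without replicate 3 of T0 (1.76, adjusted p = 0.0267). Leaving out the same libraries also called the stronger response to PI (1.75 and 1.74 against 1.35 with all libraries, adjusted p = 0.0454, 0.0313 and 0.129). DESeq2 called the stronger response to PI with all libraries (1.35, adjusted p = 0.0470).

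*Tigit* (chromosome 16, 43648974 to 43664297, minus strand), the PVR receptor that opposes CD226, had 95.1, 25.1 and 71.4 normalized counts in N0 and 241, 265 and 201 in T0 (log2 fold change 1.87, SE 0.39, adjusted p = 0.00501). It had 265, 125 and 92.4 in NAg and 1175, 1162 and 1131 in TAg. The TAg libraries were close to one another and all far above NAg (log2 fold change 2.86, SE 0.34, adjusted p = 2.54e-05). After PI it had 210.1, 284 and 212 in NPI and 1296, 1016 and 1143 in TPI, with TPI overlapping TAg (log2 fold change of TPI against TAg -0.0038, SE 0.30, adjusted p = 0.992). Replicate 1 of NAg, the highest of its group in *Tigit* and in *Havcr2*, also had the highest sum of macrophage and monocyte markers in NAg, 1501 against 509 and 521 in the other two. Without it the rise of *Tigit* after Ag in naive cells was 1.68-fold and no longer called (adjusted p = 0.0959; 2.48-fold with an adjusted p of 0.0137 with all libraries). Without replicate 2 of N0 it was 1.85-fold with an adjusted p of 0.059. Leaving out replicate 1 of NAg also brought 2 calls, a stronger response of tolerized cells to Ag (log2 difference 1.54, adjusted p = 0.0261; 0.98 and 0.234 with it) and NPI above NAg (log2 fold change 1.11, adjusted p = 0.00966; 0.55 and 0.195 with it). In replicates 1, 2 and 3 of NAg, *Foxp3* had 904, 747 and 431 and *Ikzf2* had 2275, 1561 and 944. The regulatory T cell markers there summed to 30503, 31847 and 26646. The part of macrophage or regulatory T cell RNA in these values of *Tigit* was not tested. The summed NK cell markers were 775 to 1069.6 in TAg, 542 to 1250.5 in NAg, 248 to 429 in TPI and 519 to 827 in NPI, and the part of NK cell RNA in the levels of *Tigit* and *Cd160* was not tested.

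*Havcr2*, which encodes TIM-3 (chromosome 11, 46268437 to 46294757, plus strand), was the lowest of the 8 genes at rest in naive cells, with 47.5, 7.31 and 12.9 normalized counts in N0, and had 99.1, 98.0 and 57.5 in T0. The call of this difference (log2 fold change 1.90, SE 0.51, adjusted p = 0.0194) was lost without replicate 2 or 3 of N0 and without replicate 1 or 2 of T0, with log2 fold changes from 1.48 to 1.77. It was also lost with only the groups compared (1.97, adjusted p = 0.113) and with sex as a covariate (1.65, adjusted p = 0.12). After Ag it had 93.5, 44.6 and 36.3 in NAg and 231, 229 and 243 in TAg, and the rise in naive cells just missed the threshold (2.52-fold, adjusted p = 0.0506). Without replicate 1 of N0, the highest of its group, this rise was 5.43-fold and called (adjusted p = 0.00252). DESeq2 called the rise with all libraries (log2 fold change 1.41, adjusted p = 0.0105). *Havcr2*, like *Ctla4*, was called higher after PI than after Ag in both cell states. It had 361, 551 and 394 in NPI, 7.52-fold above NAg (log2 fold change 2.91, SE 0.39, adjusted p = 1.82e-05). It had 1559, 1174 and 1483 in TPI, all above TAg (log2 fold change 2.59, SE 0.33, adjusted p = 1.05e-05).

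*Cd244*, the CD48 receptor best known from NK and CD8+ T cells (chromosome 1, 173489324 to 173515449, plus strand), was the gene that moved least. It had 200.1, 102 and 80.3 normalized counts in N0, 249, 248 and 123 in T0, and between 108 and 187 in the 6 Ag libraries. After PI it had 109, 155 and 92.5 in NPI and 80.0, 70.2 and 104 in TPI. Only the fall from T0 to TPI was called (2.42-fold, log2 fold change -1.28, SE 0.35, adjusted p = 0.00486), and it was not called with erythroid and myeloid scores in the model (log2 fold change -0.78, adjusted p = 0.41). The summed NK cell markers were also lowest in TPI, between 248 and 429 against between 849.8 and 1184 in T0. The part of NK cell RNA in the fall of *Cd244* was not tested. All TPI libraries lay below TAg, but this difference missed the threshold (log2 fold change -0.82, SE 0.36, adjusted p = 0.0579). DESeq2, the fit of only the groups compared and the fit with sex called it. DESeq2 also called a weaker response to PI in tolerized cells (log2 difference -1.18, adjusted p = 0.0308). The highest N0 library, replicate 1, was the one rich in B cell markers. It also had the highest NK cell sum of N0, 1063 against 741 and 536. Its dendritic cell marker sum was the highest too, 850 against 379 and 436. The lowest T0 library, replicate 3, had the lowest NK cell sum of T0, 849.8 against 1081 and 1184. The part of B, NK or dendritic cell RNA in these levels was not tested. Without replicate 1 of N0, *Cd244* was 2.26-fold higher in T0 than N0 (adjusted p = 0.0169, against 1.62-fold with an adjusted p of 0.177 with all 3). Without that library the response to PI was also called weaker in tolerized cells (log2 difference -1.63, adjusted p = 0.0145; -1.16 and 0.124 with it), and replicate 3 of T0, the lowest of its group, decided the same 2 calls (0.95 and -1.40, adjusted p = 0.0456 and 0.0382 without it). All 5 pairs of neighbouring groups in the order of its levels overlapped, and the highest and lowest group means differed 2.44-fold, against 79.4-fold for *Ctla4*, 72.8-fold for *Lag3*, 62.2-fold for *Havcr2*, 23.6-fold for *Pdcd1*, 18.1-fold for *Tigit*, 7.99-fold for *Cd160* and 5.14-fold for *Btla*.

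Whether the gap between the cell states was the same after both stimuli was tested as TPI against NPI relative to TAg against NAg, a comparison that was added after the values had been seen. Of the 8 genes, 3 had a wider gap after PI and 0 a narrower one (17.2% and 20.0% of all tested genes). These were *Pdcd1* (log2 difference 2.04, SE 0.23, adjusted p = 5.41e-06), *Btla* (1.78, SE 0.14, adjusted p = 8.37e-10) and *Ctla4* (1.65, SE 0.26, adjusted p = 0.00014). For *Lag3*, *Tigit*, *Havcr2* and *Cd160* the gap after PI was not shown to differ from that after Ag (log2 differences between -0.56 and -0.02, adjusted p between 0.397 and 0.986). Without replicate 1 of NAg, the gap of *Tigit* was narrower after PI than after Ag (-1.10, adjusted p = 0.0448). Relative to rest, the response of tolerized cells to Ag differed from that of naive cells for 2 genes, *Ctla4* and *Pdcd1*, both weaker, and for 0 genes stronger (7.09% and 14.6% of all genes), and the response to PI differed for 1 gene, *Btla*, which was stronger, and for 0 weaker (12.7% and 7.52%). At the level of 1 cell state, PI against Ag raised 2 genes in naive cells, *Havcr2* and *Ctla4*, and lowered 2, *Pdcd1* and *Btla* (33.5% and 31.0% of all genes). In tolerized cells it raised 4, *Havcr2*, *Ctla4*, *Btla* and *Pdcd1*, and lowered 1, *Cd160* (31.5% and 32.3%). The call of *Ctla4* in naive cells (log2 fold change 0.49, adjusted p = 0.0301) was lost without replicate 3 of NAg, without replicate 2 or 3 of NPI, and under 3 of 8 alternatives.

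CTLA-4 and TIGIT share ligands with a costimulatory receptor, so the levels of each pair were compared per kb of exon in the same library. The ratio of *Ctla4* to *Cd28* was 0.37, 0.22 and 0.30 in N0 and 1.34, 1.42 and 1.496 in T0, so that *Ctla4* stood below *Cd28* in every N0 library and above it in every T0 library. After Ag the ratio was 6.10, 7.32 and 4.20 in NAg and 9.13, 6.21 and 9.77 in TAg, and these groups overlapped. After PI it was 0.60, 0.65 and 0.66 in NPI and 4.17, 3.39 and 4.04 in TPI. *Cd28* itself was 6.1-fold higher in NPI than N0 and was lower in NAg than N0 (log2 fold changes 2.61 and -1.04, adjusted p = 6.75e-13 and 2.19e-07), so that *Ctla4* stayed below *Cd28* after PI in naive cells although both rose. The ratio of *Tigit* to *Cd226* was 0.21, 0.044 and 0.15 in N0, 0.45, 0.52 and 0.34 in T0, and 0.98, 0.44 and 0.42 in NAg. It was above 1 only in TAg (7.12, 6.98 and 6.11), NPI (1.17, 1.72 and 1.08) and TPI (12.3, 9.10 and 11.6). *Cd226* fell in each of the 4 responses, with log2 fold changes between -2.38 in TPI against T0 and -0.96 in NAg against N0. *Icos*, a costimulatory CD28 relative, was higher in tolerized cells in all 3 states (1.18, 1.43 and 1.58).

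**Figure D5:**
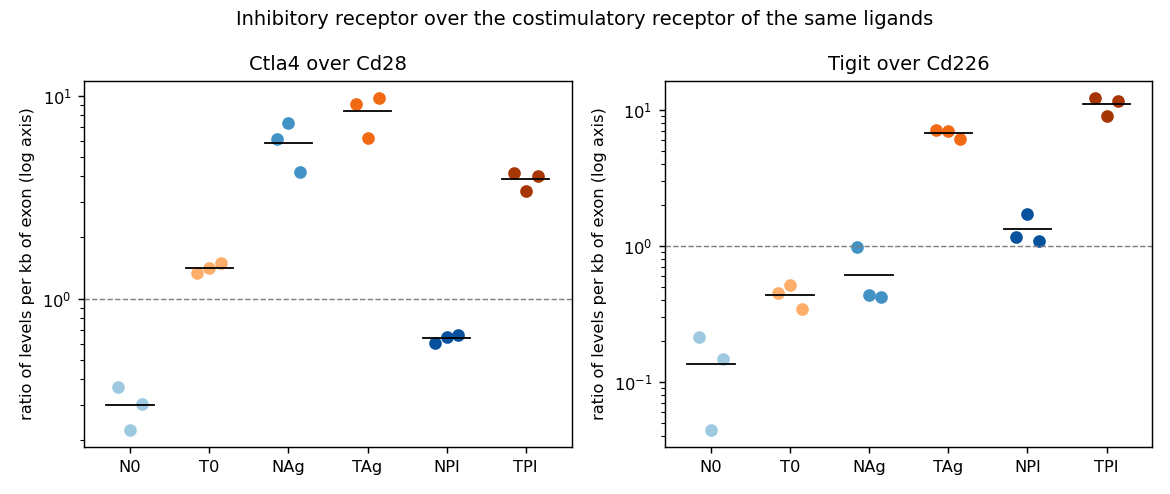
Ratio (log axis) of the level per kb of exon of *Ctla4* over *Cd28* and of *Tigit* over *Cd226* in each library; points are the 3 libraries of a group, lines their mean, and the dashed line marks equal levels. *Ctla4* over *Cd28* is below the dashed line in N0 and NPI and above it in the other groups, and *Tigit* over *Cd226* is highest in TPI (9.10 to 12.3).

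Of 14 genes of ligands for these receptors, 13 were tested and *Fgl1*, a ligand of LAG-3, was at 0 in all libraries. The PD-1 ligand genes *Cd274* (PD-L1) and *Pdcd1lg2* (PD-L2) rose in all 4 responses, with log2 fold changes between 2.84 and 4.14 for *Cd274* and between 3.08 and 3.70 for *Pdcd1lg2*. *Cd48*, the CD244 ligand, fell in all 4 (log2 fold changes between -1.49 and -1.09). *Pvr*, the ligand gene of TIGIT and CD226, was lower in tolerized cells in each state, with -0.89 at rest (adjusted p = 9.12e-06), -1.44 after Ag (adjusted p = 2.14e-09) and -0.78 after PI (adjusted p = 4.61e-06). It had a mean of 908 normalized counts in N0 and 490.0 in T0, and of 1491 in NAg and 551 in TAg. In T0 against N0, 3 ligand genes were higher (*Ceacam1* 1.66, *Lgals3* 1.49 and *Cd80* 1.21) and 2 lower (*Pvr* and *Tnfrsf14*, -0.36). In TAg against NAg, 3 were higher (*Lgals3* 0.93, *Cd48* 0.58 and *Pdcd1lg2* 0.46) and 2 lower (*Pvr* and *Cd274*, -0.27). In TPI against NPI, 4 were higher (*Pdcd1lg2* 1.06, *Cd80* 0.61, *Lgals3* 0.46 and *Cd274* 0.37) and 2 lower (*Pvr* and *Lgals9*, -0.74). These counts stand beside 8.42% of all tested genes higher and 12.0% lower at rest, 20.9% and 18.5% after Ag, and 18.2% and 19.7% after PI, and with so few genes they are not read as a result about the list. The 13 ligand genes had median log2 fold changes of 0.43, -0.01 and 0.13 against -0.08, 0.01 and -0.04 over all tested genes. These ligands also act on other cells, and part of their RNA could come from the B and myeloid cells in the libraries, which was not tested.

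Of 7 other inhibitory receptors, 3 were higher in T0 than N0 (*Klrg1* 0.93, *Cd101* 0.57 and *Cd5* 0.51) and 2 lower (*Cd200r1* -0.68 and *Cd96* -0.33). After Ag 1 was higher, *Cd101*, and 1 lower, *Vsir*, and after PI 4 were higher (*Cd101*, *Cd5*, *Vsir* and *Klrg1*, 0.73) and 2 lower (*Lair1* -1.16 and *Cd96* -0.29). Their median log2 fold changes were 0.02, 0.15 and 0.73, and the counts are to be set against the same shares of all tested genes (8.42% and 12.0% at rest, 20.9% and 18.5% after Ag, 18.2% and 19.7% after PI). *Vsir*, which encodes VISTA, moved in the same directions as *Btla*, with lower counts in TAg than NAg (log2 fold change -1.18, adjusted p = 1.78e-11) and higher counts in TPI than NPI (0.77, adjusted p = 1.42e-08). *Cd101* was higher in tolerized cells by 1.33 after Ag and 1.49 after PI, and it was lower in TAg than T0 (-1.98) and in NAg than N0 (-2.75). *Cd5*, a receptor that tracks the strength of TCR signals, was higher in T0 than N0 (0.51, adjusted p = 0.0319) and in TPI than NPI (1.02, adjusted p = 8.95e-05). *Cd96*, another PVR receptor, was lower in all 4 responses (between -2.11 and -0.92). Among 12 genes of signalling partners, 2 were higher in T0 than N0 (*Cblb* and *Ptpn11*, 0.32) and 3 lower (*Trat1* -1.01, *Lrba* -0.21 and *Bag6* -0.21). After Ag 3 were higher (*Ptpn6*, *Ptpn11* 0.49 and *Csk* 0.46) and 3 lower (*Sh2d1a*, *Inpp5d* -0.50 and *Cblb*), and after PI 5 were higher (*Ptpn11*, *Cblb*, *Fyn* 0.44, *Csk* 0.24 and *Inpp5d* 0.23) and 3 lower (*Trat1* -1.58, *Sh2d1b1* -1.05 and *Sh2d1a* -0.66). The median log2 fold changes of these 12 genes, -0.08, 0.0047 and -0.03, were close to those of all tested genes (-0.08, 0.01 and -0.04), and after Ag their counts were near the 20.9% and 18.5% called over all genes. *Ptpn6*, which encodes SHP-1, was higher in TAg than NAg (log2 fold change 0.98, adjusted p = 5.51e-06), and *Ptpn11*, which encodes SHP-2, was higher in TPI than NPI (1.64, adjusted p = 2.97e-10). *Cblb*, a ubiquitin ligase that limits TCR signals, was higher in T0 than N0 (0.58, adjusted p = 0.000156) and in TPI than NPI (1.01, adjusted p = 1.43e-08), but lower in TAg than NAg (-0.30, adjusted p = 0.0146). *Sh2d1a*, which encodes the adaptor SAP that couples CD244, was lower in TAg than NAg (-0.87, adjusted p = 0.000127).

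Over the 18 libraries, the log2 CPM of *Lag3*, *Tigit* and *Cd160* had Pearson's r of 0.96 for *Lag3* and *Tigit*, 0.93 for *Lag3* and *Cd160* and 0.90 for *Tigit* and *Cd160*. *Ctla4* had r of 0.91 with *Havcr2* and 0.90 with *Pdcd1*. *Cd244* had r between -0.45 with *Btla* and 0.06 with *Cd160*. Among 10335 other genes with a mean of at least 50 normalized counts, the profile most like that of *Ctla4* belonged to *Stx11* (r = 0.98), of *Pdcd1* to *Tdgf1-ps2* (0.99), of *Lag3* to *Pou2f2* (0.98), of *Havcr2* to *Myo1c* (0.97), of *Tigit* to *Itgb8* (0.97), of *Btla* to *Tdg* (0.99), of *Cd160* to *B930095G15Rik* (0.95) and of *Cd244* to *Adrbk2* (0.85). *Farp1* was among the 3 closest genes of both *Lag3* (0.98) and *Cd160* (0.94), and *Tbx21*, which encodes T-bet, was the third for *Pdcd1* (0.98). *Ciita* and *Cd209a*, genes of antigen-presenting cells, were the next closest for *Cd244* after *Adrbk2* (both 0.85). These correlations are descriptions across libraries that share groups of 3 and their cell content.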

How the data were processed

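RNA depleted of ribosomal RNA was sequenced from 18 samples of splenic CD4+ T cells, 3 in each of 6 groups. Per the labels and the study's methods, the authors aligned reads to mouse build mm9 (NCBIM37) with TopHat 2.1.1 and made raw counts per gene with HTSeq 0.9.1, and they used DESeq2 1.18 and edgeR 3.24 for their own comparisons. The strand setting of the counting is not given in the sources used here, so reads of overlapping antisense genes cannot be told apart. The deposited counts were used as they stand. Ensembl identifiers were matched to symbols in the NCBIM37 annotation.

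Counts were normalized by TMM in edgeR 4.0.16 (R 4.3.3, limma 3.58.1). A gene was tested where its normalized count averaged 3 or more in any of the groups (17240 of 37991). edgeR's robust quasi-likelihood F test was fitted over all 18 libraries with a mean for each group, and p-values were adjusted by the Benjamini-Hochberg method over all tested genes, with a threshold of 0.05. There were 11 comparisons fixed at the start and 1 added after the data were seen. Levels are normalized counts as mean ± SD over 3 libraries, or the same per kb of exon. Total counts ran from 10758571 to 24119489. The test was tried on simulated data. Of 100 genes changed by a log2 fold of 1, it called 95 in T0 against N0 and 91 in TAg against NAg. For the difference between the responses to Ag it called 82. Of 100 genes changed by 2 it called 100 in each, with 10 false calls among 16374 other genes in T0 against N0. The simulated spread was that typical of a gene's level, without differences in sex or cell content. This recovery may not hold for low, variable receptors such as *Havcr2* (SE 0.51 in T0 against N0).

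Alternatives were DESeq2 1.42.0, its size factors, no filter, only the groups compared, a replicate block, marker scores (mean log2 CPM of erythroid and of neutrophil, macrophage and monocyte markers) or sex as covariates, a stricter rule (fold of at least 2, average count above 50), calls by both tools, and each library left out. The fit without replicate 1 of both N0 and NAg was chosen after seeing the data. The receptors and the lists beside them were chosen with earlier results of these data known. All 8 receptors were named in every comparison; of the other lists, the genes named are up to 4 called genes of smallest adjusted p in a comparison and those that a count of 5 or fewer refers to. For each receptor the 3 genes of highest Pearson correlation over the 18 libraries (log2 CPM, prior count 2) were taken among genes with a mean of at least 50 normalized counts. The study describes the 3 libraries of a group as biological replicates. The labels do not state whether each held cells of 1 mouse or of a pool. The p-values set a difference between groups against the spread within groups, estimated over all 18 libraries.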

Additional observations from a re-analysis of the deposited data

Results flagged for a closer look

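Effects that differed between the cell states or stimuli by a test of the difference itself were found for 3 receptors, and the tests share libraries with one another. The response to Ag was weaker in tolerized than naive cells for *Ctla4* (log2 difference -1.23) and *Pdcd1* (-1.28), both of which started from a higher resting level in tolerized cells. The response to PI was stronger in tolerized cells for *Btla* (1.40). The gap between tolerized and naive cells was wider after PI than after Ag for *Ctla4* (1.65), *Pdcd1* (2.04) and *Btla* (1.78), a comparison chosen after the values were seen. PI was given ex vivo and Ag in vivo, and all PI libraries held at least 5599 Y-linked reads and the N0 and NAg libraries at most 15, so that stimulus, setting and sex cannot be told apart in comparisons of NPI with N0 or NAg.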

How the results depend on the processing

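Of 96 log2 fold changes (8 receptors in 12 comparisons), 88 kept direction and call with DESeq2, 92 with DESeq2's size factors, 94 without the filter on low counts, 90 with sex as a covariate and 68 with the marker scores (erythroid and myeloid) in the model. With marker scores, the receptors called were 0 higher in T0 than N0, 3 higher in TAg than NAg, 0 lower in TPI than T0, 1 higher in NPI than NAg, 0 lower in TPI than TAg, and 1 with a weaker response to Ag in T. In that fit, genes of the whole table called higher and lower fell from 1452 and 2067 to 19 and 20 in T0 against N0, from 3609 and 3185 to 1993 and 1712 in TAg against NAg, and from 3138 and 3399 to 1589 and 1155 in TPI against NPI. They also fell from 6259 to 3588 (lower in TPI than T0), from 5768 to 3768 (higher in NPI than NAg) and from 2511 to 1672 (stronger response to Ag in T). With sex as a covariate T0 against N0 had 922 and 912, 1 receptor was higher in NPI than NAg and 2 lower in TPI than TAg. With only the groups compared, 947 genes were lower in T0 than N0 and 2062, against 1297, had a weaker response to PI in T. DESeq2 called 2 receptors lower in TPI than TAg, 3 with a stronger and 1 with a weaker response to PI in T. Without the filter 1 receptor was higher in NPI than NAg. The stricter rule left 0 lower in TAg than NAg, 1 higher and 1 lower in NPI than NAg, and 0 lower in TPI than TAg, and it called fewer genes of the whole table in each comparison by its construction (450 and 111 in T0 against N0). Without replicate 1 of N0 and of NAg together, 1 receptor had a narrower gap after PI and 1 a weaker response to PI in T. The cause was not tested for these changes.

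With each library left out in turn, the receptors called ran from 1 to 3 (higher in NPI than NAg), 0 to 1 (lower in TPI than TAg), 0 to 1 (narrower gap after PI), 0 to 1 (stronger response to Ag in T), 1 to 3 (stronger response to PI in T) and 0 to 1 (weaker response to PI in T). The count ran from 4 to 7 for higher in NAg than N0 and from 5 to 7 for higher in T0 than N0. Both were 6 with all libraries. It ran from 3 to 4 for higher in TPI than TAg. It ran from 2 to 3 for lower in NPI than NAg and for a weaker response to Ag in T. In the other comparisons and directions the count stayed the same. The log2 fold changes that turned sign were not called with all libraries. For *Cd244* in NAg against N0 the value was -0.16 with marker scores and ran from -0.20 to 0.54 over the libraries left out. For *Cd244* in NPI against N0 it was 0.29 with marker scores and 0.38 without replicate 1 of N0 and of NAg, and ran from -0.40 to 0.33. In T0 against N0, *Cd244* was at -0.013 with marker scores and *Btla* ran from -0.19 to 0.0013. In TAg against NAg, *Cd244* was at -0.22 with marker scores and -0.14 with sex, and ran from -0.047 to 0.25. In NPI against NAg, marker scores turned *Lag3* (0.28), *Cd160* (0.15) and *Cd244* (0.45), and sex turned *Lag3* (0.098). In TPI against TAg, marker scores turned *Lag3* (0.23) and *Tigit* (0.96), and *Tigit* was at 0.024 with DESeq2, 0.026 with its size factors and 0.0036 with only the groups compared, and ran from -0.084 to 0.077. In the gap after PI against Ag, *Lag3* was at 0.037 with DESeq2 and 0.031 with its size factors and ran from -0.24 to 0.13, and *Cd160* ran from -0.46 to 0.013. *Havcr2* in the response to Ag was at -0.51 without replicate 1 of N0 and of NAg and ran from -1.01 to 0.64, and in the response to PI it was at 0.16 with marker scores and 0.046 with sex and ran from -1.34 to 0.22.

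The replicate numbers did not pair the libraries: of 45 pairs of same-numbered libraries 5 had correlated deviations over 0.1, and 3 of 18 libraries correlated best with their own number. With the replicate block, 3 rather than 2 receptors had a weaker response to Ag in T, the third being *Btla* (log2 difference -0.38), and no other receptor changed its call. Depth limits the low members most, since *Havcr2* rested on 7 and *Lag3* on 13 reads in replicate 2 of N0.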
